A study of Mus musculus with 2 samples.

Results

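The nuclear-encoded genes of the mitochondrial respiratory chain were followed across the cell types of the perinatal mouse forebrain and set against the 13 protein genes of the mitochondrial genome. Members were taken by symbol: all features starting with Nduf, Sdha to Sdhd, Uqcr, Atp5 or Cox4 to Cox8, without pseudogenes marked -ps. The rule found 97 features of the 31053 in the embryonic file and the 31054 in the postnatal file, for 96 symbols, since Atp5o is listed under a pair of IDs. The members were 36 subunits of complex I, 4 of complex II, 8 of complex III, 19 of complex IV (with Ndufa4 and its relative Ndufa4l2), 16 features of ATP synthase, 8 assembly factors of complex I, 4 of complex II, the supercomplex factor Cox7a2l, and Atp5s, a coupling factor that is not a subunit. In each library 94 members had a UMI (a unique molecular identifier, which tags 1 captured RNA molecule). Cox8b, Cox8c and the Atp5o entry ENSMUSG00000116933 were at 0 in both.

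The respiratory chain passes electrons from NADH and succinate through complexes I, II, III and IV to oxygen and pumps protons across the inner mitochondrial membrane, and ATP synthase uses the proton gradient to make ATP. Complex II is wholly nuclear-encoded. The other complexes combine nuclear-encoded subunits, which are imported from the cytosol, with subunits made inside the mitochondrion from mitochondrial DNA. Neural stem cells and dividing progenitors are known for high glycolysis, while neurons rely largely on oxidative phosphorylation. Several subunits of complex IV and ATP synthase are encoded by families of related genes, some of which are known for use in muscle, testis or oxygen-deprived cells.

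The study profiled 2 single-cell RNA-seq libraries, 1 per age. The E18 library came from CD1 mice at embryonic day 18 and held cortex together with the dorsal ventricular-subventricular zone, the germinal zone that lines the lateral ventricle. The P2 library came from Emx1Cre;R26Eyfpfl/fl mice at postnatal day 2, in which EYFP marks the descendants of Emx1-expressing, cortical cells, and held the dorsal and lateral ventricular-subventricular zone after removal of the cortex. Both tissues were digested with papain, with DRAQ5 to label nuclei, and age, mouse line, dissection and library cannot be told apart. With no replicate, no test between cells or ages was made. Levels are UMIs of a gene per 1000000 UMIs of a cell class (CPM), and intervals are exact 95% intervals for counting error alone.

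After filtering, 2496 E18 cells (median 6574 UMIs) and 2296 P2 cells (median 12525 UMIs) were kept, and the libraries shared 0 barcodes. Clustering without the members and the mt- genes gave classes named from marker genes, each name standing for cells like that type. At E18 these were 1837 excitatory neurons, 257 inhibitory neuroblasts or interneurons, 105 cycling cells, 96 excitatory intermediate progenitors, 91 radial precursors or neural stem cells, 51 oligodendrocyte precursors, 10 microglia, 5 mural cells of the vessel wall and 1 endothelial cell. At P2 they were 1058 inhibitory neuroblasts or interneurons, 258 cycling cells, 216 excitatory neurons, 214 inhibitory-lineage intermediate progenitors, 198 striatal projection neurons, 114 radial precursors or neural stem cells, 81 oligodendrocyte precursors, 43 microglia and 14 ependymal cells. Unnamed clusters held 43 and 100 cells.

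Levels are given first over all cells. Over all kept cells, the subunits of complex I, which takes electrons from NADH, summed to 9971 CPM at E18 and 8438 CPM at P2. Complex IV, which reduces oxygen, summed to 9221 and 7364 CPM, and ATP synthase to 8841 and 7922 CPM. Complex III, which passes electrons to cytochrome c, summed to 3176 and 2442 CPM. Complex II, which oxidises succinate and also serves the citric acid cycle, summed to 561 and 489 CPM. Since each UMI counts 1 molecule, no length scaling was applied, but capture can still differ between genes.

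Within complexes the level per gene ranged widely. Cox4i1, the common form of complex IV subunit 4, was highest, with 1321 CPM in the E18 and 1011 CPM in the P2 library, followed by Cox7c with 1059 and 971 CPM. In complex I, the membrane-arm subunit Ndufc2 led with 507 and 453 CPM, and Ndufb9, another subunit of that arm, had 424 and 367 CPM. Ndufs1, the iron-sulfur subunit of the electron-accepting arm, was lowest with 37.6 and 61.1 CPM. Among the 4 subunits of complex II, the iron-sulfur subunit Sdhb was highest with 279 and 193 CPM. The flavoprotein Sdha had 72.2 and 108 CPM, the membrane anchor Sdhc 92.5 and 93.1 CPM, and the other anchor, Sdhd, 117 and 94.7 CPM. In complex III the hinge protein Uqcrh (674 and 622 CPM) lay above the core proteins Uqcrc1 (208 and 143 CPM) and Uqcrc2 (196 and 183 CPM). In ATP synthase, Atp5l of the membrane part (916 and 621 CPM) and the catalytic Atp5b (810 and 744 CPM) were highest, and Atp5g3 was the lowest expressed gene with a UMI (296 and 339 CPM). The assembly factors were scarcer: those of complex I had a median of 55.0 CPM at E18 and 38.9 CPM at P2.

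The sum of all nuclear-encoded subunits moved little from class to class, and the mt-encoded sum moved more. At E18 the nuclear-encoded subunits took 3.29% of UMIs (95% interval 3.26 to 3.33) in cycling cells, 3.22% in radial precursors, 3.44% in oligodendrocyte precursors, 3.14% in excitatory intermediate progenitors, 3.34% in inhibitory cells and 3.15% in excitatory neurons. The mt-encoded share in the same classes was 2.04%, 2.22%, 2.66%, 2.79%, 3.05% and 3.48%. The nuclear share thus spanned a narrow band with no order from progenitor to neuron, whereas the mt share was lowest in the dividing and radial cells and highest in excitatory neurons. The ratio of nuclear to mt UMIs, which does not depend on how libraries are scaled, was 1.61 in cycling cells, 1.45 in radial precursors, 1.29 in oligodendrocyte precursors, 1.12 in excitatory intermediate progenitors, 1.09 in inhibitory cells and 0.906 in excitatory neurons. With cells weighted equally the ratio of the E18 radial precursors was 1.20 instead of 1.45.

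At P2 the mt share exceeded the nuclear share in every named class. The nuclear share was 3.02% in inhibitory-lineage intermediate progenitors, 2.80% in cycling cells, 2.77% in radial precursors, 2.76% in oligodendrocyte precursors, 2.59% in striatal neurons, 2.51% in excitatory neurons and 2.48% in inhibitory cells. The ratio to the mt share was 0.741 in intermediate progenitors, 0.717 in cycling cells and 0.613 in radial precursors, and lay between 0.503 and 0.515 in the oligodendrocyte precursors and the 3 neuronal classes. Microglia, the resident macrophages of the brain, had the lowest nuclear share in both libraries, 2.27% (2.16 to 2.37) at E18 and 1.80% (1.77 to 1.82) at P2, with ratios of 0.600 and 0.343. The highest nuclear shares were in the 5 E18 mural cells, 3.97% (3.78 to 4.18), and in the 14 P2 ependymal cells, the ciliated lining of the ventricle, 3.20%. Their mt shares were 3.49% and 6.20%.

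**Figure D1:**
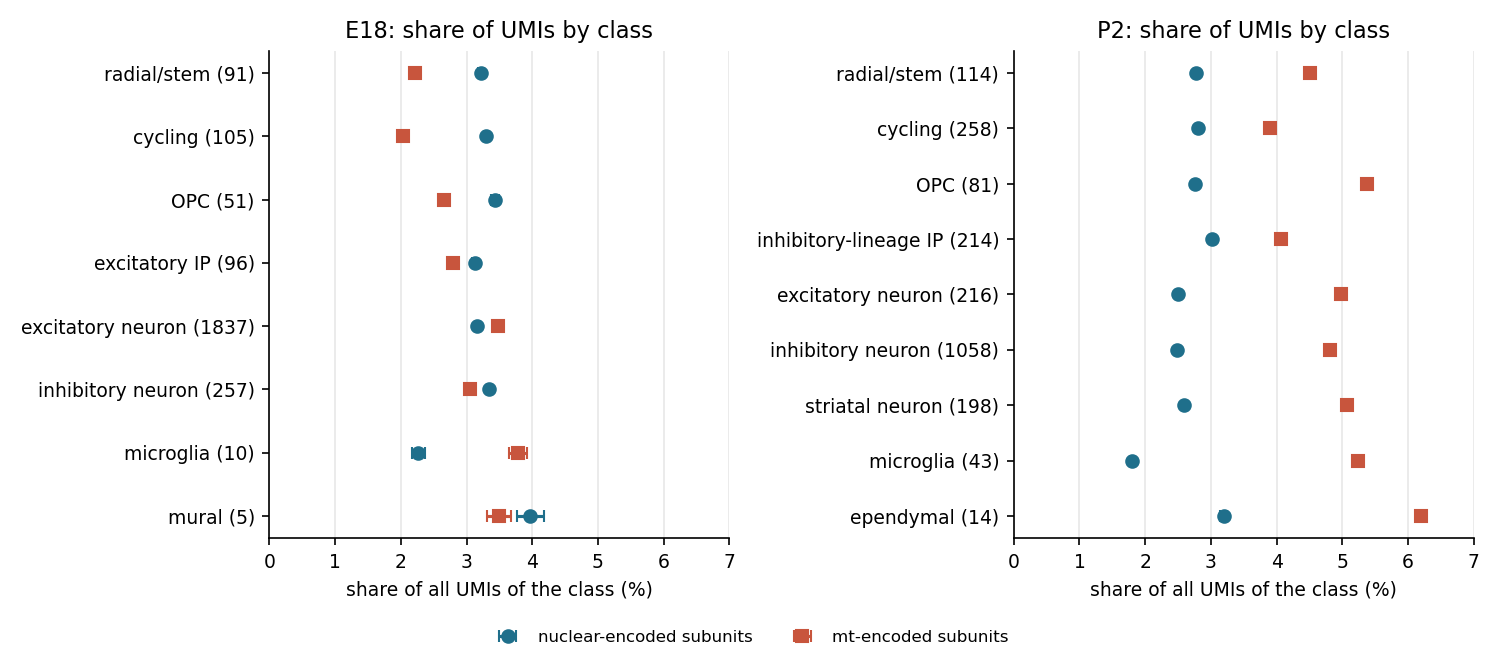
Share of all UMIs of a class (%, x axis) taken by nuclear-encoded subunits (blue circles) and mt-encoded subunits (red squares) in each cell class, with the number of cells in parentheses, for E18 (left) and P2 (right); bars are exact 95% counting intervals, mostly smaller than the symbols. At E18 the squares lie left of the circles in progenitors and cross them in excitatory neurons, and at P2 every square lies right of its circle.

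Clusters within a class also differed. In the E18 excitatory neurons the nuclear share ran from 2.86% to 3.36% over 8 clusters, and the mt share from 2.82% in a cluster with a median of 5702 UMIs per cell to 4.24% in one with a median of 10150 UMIs. Among the P2 inhibitory clusters the nuclear share ran from 2.28% to 2.74% and the mt share from 4.43% to 5.30%. Per cell, the relation of the nuclear and mt shares differed between the libraries. Over the classes with at least 50 cells, Pearson's r at E18 was below 0 in all but the cycling cells. It ran from -0.54 over the 91 E18 radial precursors to 0.18 over the 105 E18 cycling cells. At P2 it was above 0 in all but the cycling cells, from -0.03 over 258 cycling cells to 0.50 over 216 excitatory neurons. The cells of a class share a library and the 2 shares have a common denominator, so these are descriptions.

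Most single members varied by less than 2 times across classes. Over the classes with at least 50 cells, the highest CPM of a member was a median of 1.44 times its lowest at E18 (89 members with 50 or more UMIs) and 1.52 times at P2 (90 members), and 76 and 78 of them stayed under 2 times. Among members with a UMI in each of these classes, the widest range was 3.69 times at E18 and 26.8 times at P2. In each library 1 member had no UMI in its lowest class. For the 13 mt genes the medians were 1.89 and 1.65 times. No range over all genes stands beside these values. Whether members vary less across classes than other genes of their level therefore cannot be said. The mt genes that varied most at E18 were mt-Atp8 (5.82 times), mt-Nd4l (5.09 times) and mt-Nd6 (4.81 times), each lowest in radial precursors. These lowest levels all rest on few UMIs. At E18 radial precursors and cycling cells together had 35 UMIs of mt-Atp8, 47 of mt-Nd4l and 9 of mt-Nd6, and radial precursors held only part of these. Over all kept E18 cells mt-Nd6 had 138 UMIs.

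Neurons were next set against progenitors within each library, pooling excitatory, inhibitory and, at P2, striatal neurons (2094 cells at E18, 1472 at P2) against radial precursors and cycling cells (196 and 372 cells). The nuclear-encoded sum was nearly level between them, and the mt-encoded sum was higher in neurons. At E18 the nuclear share was 3.17% in neurons and 3.27% in progenitors, a log2 ratio of -0.04 (-0.06 to -0.03), while the mt share was 3.45% and 2.10%, a log2 ratio of 0.71 (0.70 to 0.73). At P2 the nuclear share was 2.50% and 2.79%, a log2 ratio of -0.16 (-0.17 to -0.15), and the mt share 4.88% and 4.05%, a log2 ratio of 0.27 (0.26 to 0.28). Relative to the mt sum, the nuclear sum was lower in neurons by a log2 ratio of -0.76 (-0.77 to -0.74) at E18 and -0.43 (-0.43 to -0.42) at P2. Scaling by TMM, which assumes that most genes do not differ, moved the median of all genes at E18 from 0.04 to 0.20 and the nuclear sum from -0.04 to 0.11, so the direction of the E18 nuclear sum depends on the scaling. At P2 the mt difference fell to 0.04 when cells above 5% mt UMIs were left out. Progenitors were the deeper cells, with a median of 7382 against 6585 UMIs at E18 and 23231 against 10213 UMIs at P2, and the part of depth in these values was not tested.

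By complex, the E18 log2 ratios of neurons over progenitors were -0.11 for complex I, -0.20 (-0.30 to -0.11) for complex II, -0.07 for complex III, 0.08 (0.06 to 0.11) for complex IV and -0.08 for ATP synthase. At P2 they were -0.19, -0.40 (-0.45 to -0.34), -0.14, -0.10 and -0.16. Complex II thus had the lowest ratio in both libraries, with 3 of its 4 subunits below 0 at E18 and 4 of 4 at P2. Sdha, the subunit that oxidises succinate, had 68.3 CPM in neurons and 100.3 CPM in progenitors at E18, and 87.5 and 128 CPM at P2. Its log2 ratio was -0.55 in each library.

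A member was called when its log2 ratio passed 0.5 in either direction, with no test behind the call. At E18, 3 of the 89 members with 50 or more UMIs were higher and 7 lower, where 60.1% of all 10821 genes were called (32.2% higher, 27.9% lower). At P2, 1 of 90 was higher and 8 lower, where 48.9% of all 12006 genes were called (24.1% higher, 24.7% lower). In simulated counts, 11.7% of unchanged genes but 0% of unchanged members passed 0.5 at E18, and 2.41% and 0% at P2. The shares of all genes thus hold more counting noise than those of the members. The median ratio of the members was -0.03 at E18 and -0.14 at P2, against 0.04 and 0.04 for all genes, and the interquartile range was 0.34 in both libraries, against 1.31 and 0.97 for all genes. With TMM scaling the E18 calls were 12 higher and 3 lower. Over the 88 members counted in both libraries, 7 had intervals above 0 in both, 24 below 0 in both and 9 on opposite sides. No share over all genes stands beside these counts, so whether they are many or few cannot be said. Ndufc2, Ndufs8, Sdha and Atp5g2 were called lower in neurons in both libraries. Pearson's r of the 2 ratios over the 88 members was 0.64, given as a description without a value for all genes.

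**Figure D2:**
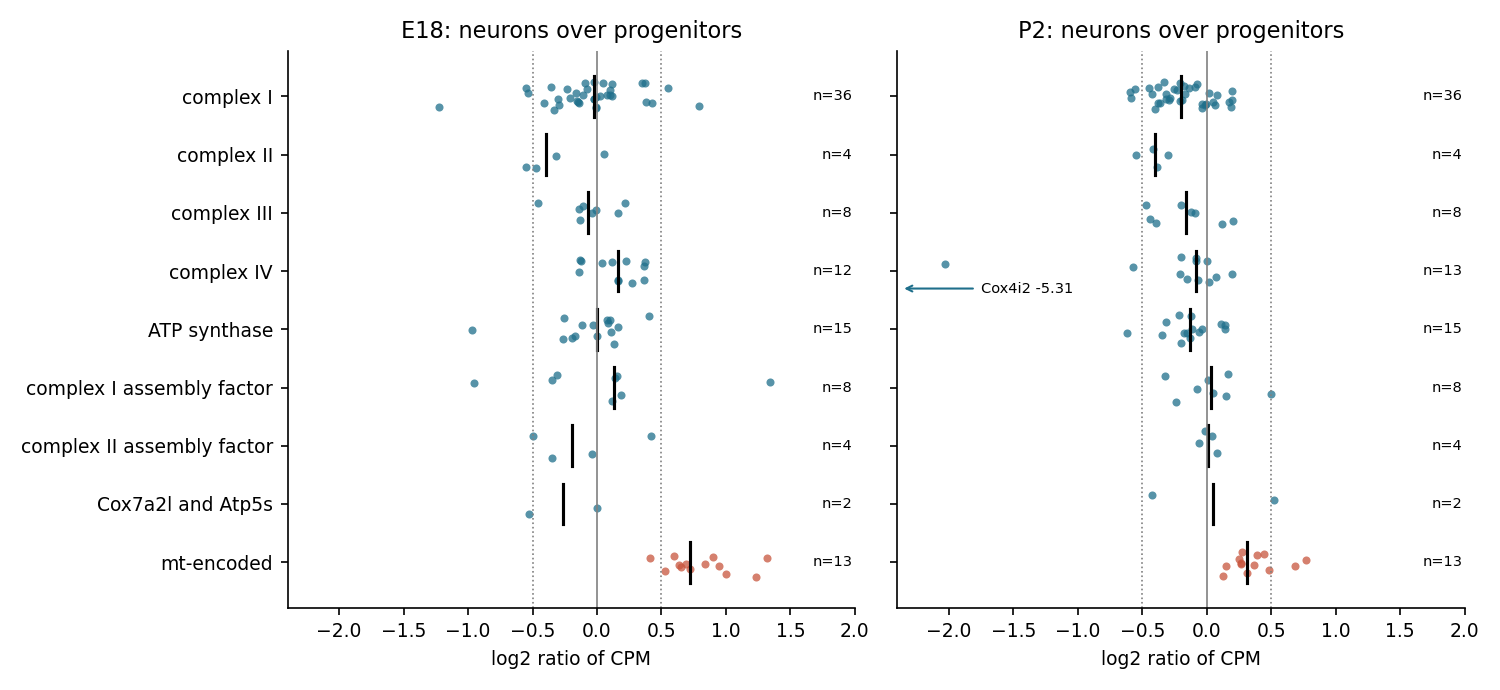
Log2 ratio of CPM in pooled neurons over pooled progenitors (x axis) for each member with 50 or more UMIs, by complex or role (blue points), and for the 13 mt-encoded genes (red points), at E18 (left) and P2 (right); black bars are medians, dotted lines mark the call limit of 0.5 and n counts the genes. Members cluster near 0 in each complex and the mt genes lie to the right; Cox4i2 at P2 lies off the axis at -5.31 and is marked by an arrow.

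In complex I the members with the largest differences at E18 were the accessory subunits Ndufc2 and Ndufv3 and the assembly factors Ndufaf5 and Ndufaf8. Ndufc2 had 441 CPM in E18 neurons and 1033 CPM in progenitors, a log2 ratio of -1.23 (-1.31 to -1.15), and 364 against 550 CPM at P2, a ratio of -0.59. By class its level ran from 1103 CPM in E18 radial precursors through 994 in cycling cells, 820 in excitatory intermediate progenitors and 643 in oligodendrocyte precursors to 502 in inhibitory cells and 435 in excitatory neurons. At P2 radial precursors were again highest with 714 CPM and inhibitory cells lowest among the classes of 50 or more cells with 332 CPM. Ndufv3, a subunit of the NADH-binding flavoprotein part, had 333 CPM in E18 neurons and 192 CPM in progenitors, a ratio of 0.79 (0.63 to 0.97). At P2 it had 193 and 187 CPM, which is near level. Ndufb2 of the membrane arm had 312 against 213 CPM at E18, a ratio of 0.55 (0.39 to 0.72), but shares exon sequence with another gene on the same strand. Ndufa2 (-0.53) and the iron-sulfur subunit Ndufs8 (-0.55) were lower in E18 neurons. Ndufab1, the mitochondrial acyl carrier protein, was lower in P2 neurons with 190 against 286 CPM, a ratio of -0.59.

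A pair of complex I assembly factors differed in opposite directions at E18. Ndufaf5, a methyltransferase-like factor that hydroxylates a core subunit during assembly, had 73.5 CPM in neurons and 28.9 CPM in progenitors, a log2 ratio of 1.35 (0.92 to 1.81). Ndufaf8, known in human cells as a partner of NDUFAF5, had 45.4 and 88.0 CPM, a ratio of -0.96 (-1.22 to -0.68). The Ndufaf5 level was set by the excitatory neurons, with 76.9 CPM against 36.8 CPM in inhibitory cells, 29.1 CPM in radial precursors and 24.5 CPM in excitatory intermediate progenitors. At P2 the ratio of Ndufaf5 was 0.50 (0.22 to 0.78), from 22.8 and 16.2 CPM, and striatal neurons were highest with 35.4 CPM.

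In complexes III and IV few members passed the limit. Uqcr10, a small accessory subunit of complex III, had 333 CPM in E18 neurons and 456 CPM in progenitors, a ratio of -0.45, short of a call. Cox8a, the common form of complex IV subunit 8, had 572 CPM in P2 neurons and 853 CPM in progenitors, a ratio of -0.58. Its P2 level was lowest in striatal neurons with 291 CPM, against 609 CPM in inhibitory cells, 677 CPM in excitatory neurons and 935 CPM in oligodendrocyte precursors, while at E18 neurons had 841 CPM and progenitors 926 CPM. Cox7a2l, which helps to join complexes III and IV into supercomplexes, was the only member called higher in P2 neurons with 421 against 293 CPM, a ratio of 0.52 (0.46 to 0.59). At E18 it had 568 and 567 CPM, with no difference between the pools.

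The mt genes differed in size more than in direction. At E18, 12 of 13 passed the limit of 0.5 upward in neurons. The log2 ratios were lowest for mt-Nd6 at 0.41 (-0.56 to 1.58) and mt-Co1 at 0.52, and highest for mt-Nd4l at 1.32, mt-Atp8 at 1.24 and mt-Nd3 at 1.00. The others were mt-Nd5 0.59, mt-Co2 0.63, mt-Nd1 0.65, mt-Co3 0.69, mt-Atp6 0.72, mt-Cytb 0.84, mt-Nd2 0.90 and mt-Nd4 0.95. At P2, mt-Nd4l (0.77) and mt-Atp8 (0.68) passed the limit and the other 11 lay between 0.12 for mt-Co1 and 0.48 for mt-Nd3. mt-Nd4l and mt-Atp8 are short genes that overlap mt-Nd4 and mt-Atp6 on shared transcripts.

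The c subunit of ATP synthase, which forms the rotating ring in the membrane, is encoded by Atp5g1, Atp5g2 and Atp5g3, whose products differ in the targeting peptide and give the same mature protein. The mixture of the 3 genes differed between progenitors and neurons in both libraries. Atp5g2 made up 53.6% of their joint UMIs in E18 progenitors (Clopper-Pearson interval 51.6 to 55.6) and 32.3% in neurons (31.6 to 32.9). At P2 it made up 51.9% and 38.9%. By class the E18 share of Atp5g2 was 60.7% in excitatory intermediate progenitors, 54.3% in oligodendrocyte precursors, 53.9% in cycling cells, 53.0% in radial precursors, 36.2% in inhibitory cells and 31.9% in excitatory neurons. At P2 it was 53.6% in cycling cells, 52.2% in oligodendrocyte precursors, 48.4% in inhibitory-lineage intermediate progenitors, 45.3% in radial precursors, 40.1% in inhibitory cells and 34.7% in striatal neurons. Atp5g1 took the larger share in E18 excitatory neurons (45.6%, against 27.6% in radial precursors) and in P2 striatal neurons (40.0%, against 25.1%). Atp5g3 made up 17.4% of the joint UMIs in E18 progenitors and 22.5% in neurons, and 23.0% and 29.2% at P2. In CPM, Atp5g2 had a log2 ratio of neurons over progenitors of -0.97 (-1.05 to -0.88) at E18 and -0.62 at P2, and Atp5g1 of 0.40 (0.29 to 0.52) at E18.

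**Figure D3:**
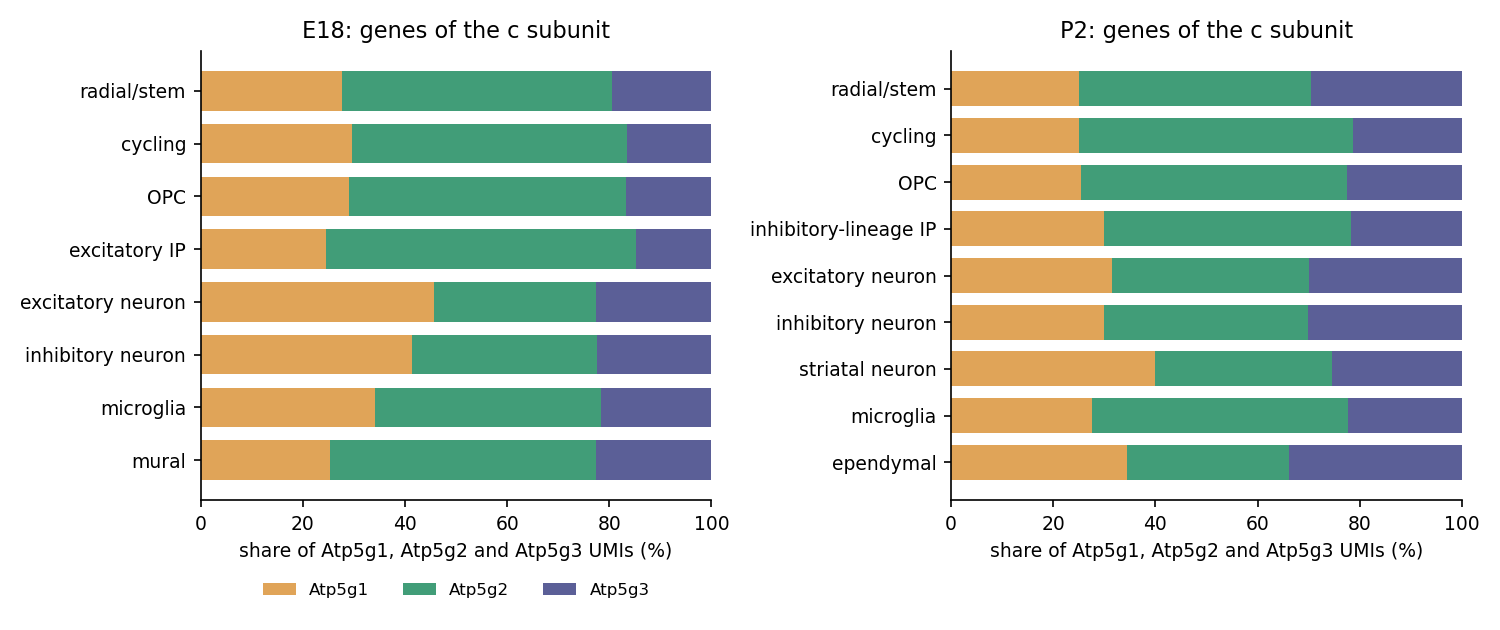
Share (%, x axis) of the joint UMIs of Atp5g1 (orange), Atp5g2 (green) and Atp5g3 (purple), the genes of the c subunit of ATP synthase, in each cell class at E18 (left) and P2 (right). The green part is above 50% in E18 precursor classes and between 31.9% and 36.2% in E18 neurons.

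The promoters of these 3 genes are shown because the genes encode the same mature subunit and differ in where they are used. The windows run from 250 bases before to 50 bases after the start of each gene as given by RefSeq for GRCm38.p6, on the strand of the gene, with matches in capitals. Atp5g2 lies on chr15:102662864-102672352 and its window at chr15:102670998-102671297. Atp5g3 lies on chr2:73908447-73911326 and its window at chr2:73911277-73911576. Atp5g1 lies on chr11:96068852-96075670 and its window at chr11:96075582-96075881, and all 3 genes are on the minus strand. The gene spans are from GENCODE, and the RefSeq starts of Atp5g1 and Atp5g2 lie inside them.
Atp5g1: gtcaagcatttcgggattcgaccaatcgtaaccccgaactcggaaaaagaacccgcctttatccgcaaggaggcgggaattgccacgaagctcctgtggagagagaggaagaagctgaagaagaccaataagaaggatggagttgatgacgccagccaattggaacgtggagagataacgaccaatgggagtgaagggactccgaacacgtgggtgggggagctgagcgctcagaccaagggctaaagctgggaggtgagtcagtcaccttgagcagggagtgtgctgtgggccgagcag
Atp5g2: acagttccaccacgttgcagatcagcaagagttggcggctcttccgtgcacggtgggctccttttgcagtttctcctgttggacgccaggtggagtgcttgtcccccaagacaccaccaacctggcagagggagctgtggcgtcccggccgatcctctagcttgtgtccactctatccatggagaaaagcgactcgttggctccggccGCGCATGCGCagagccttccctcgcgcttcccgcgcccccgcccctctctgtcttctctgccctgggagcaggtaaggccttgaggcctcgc
Atp5g3: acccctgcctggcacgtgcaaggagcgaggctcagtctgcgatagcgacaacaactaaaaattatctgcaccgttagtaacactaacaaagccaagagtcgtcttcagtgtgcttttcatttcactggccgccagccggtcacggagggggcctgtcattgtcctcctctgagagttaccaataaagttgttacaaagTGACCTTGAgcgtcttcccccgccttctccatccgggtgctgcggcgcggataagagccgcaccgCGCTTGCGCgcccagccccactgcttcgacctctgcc
The capitals in Atp5g2 and the second run in Atp5g3 match the NRF1 motif GCGCANGCG on either strand, and the first run in Atp5g3 is the ERR motif TCAAGGTCA read on the opposite strand. No match to either motif, to the ETS motif CCGGAAGT or to the YY1 motif AAGATGGCG was present in the Atp5g1 window.

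Of the 96 member symbols, 80 had such a window. Searched on both strands, the NRF1 motif was in 24 of 80 (30%) against 7.03% of the 27025 genes with a window. The ETS motif was in 5 (6.25%) against 4.31%, the YY1 motif in 8 (10%) against 1.64%, and the ERR motif in 2 (2.5%) against 0.466%. NRF1, GABPA (an ETS factor), YY1 and the estrogen-related receptors are transcription factors known from the control of respiratory chain genes. The 27025 genes were not matched to the members for expression or for the share of G and C in the window, and the part of either was not tested. A match is a string of letters and says nothing on binding in these cells, which was not measured.

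Among the rarer isoform partners, Ndufa4l2 at E18 and Cox4i2 and Cox6b2 at P2 had most of their UMIs in 1 class. Ndufa4l2, a relative of the complex IV subunit Ndufa4 that is known as a hypoxia-induced gene and a pericyte marker, lies on chr10:127514967-127517154. Of its 69 UMIs at E18, 60 fell in the 5 mural cells, with 12, 6, 9, 20 and 13 UMIs per cell. In the same cells Ndufa4 had 1, 0, 1, 0 and 6 UMIs, so Ndufa4l2 made up 88.2% of the pair (60 of 68, 78.1 to 94.8). Its level there was 1552 CPM, against 0.389 CPM in pooled neurons, while Ndufa4 had 207 CPM in mural cells and 981 CPM in neurons. Of the 9 mural markers 8 were detected in these cells, with Acta2 at 0. The cells were set apart by having at least 4 of these markers, so the detection is not separate evidence for the name. At P2, where no cells were named mural, Ndufa4l2 had 38 UMIs over all kept cells, with 12 of them in ependymal cells. The third and the fifth of the E18 mural cells also had 5 and 9 UMIs of the division marker Mki67.

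Cox4i2, the partner of Cox4i1 known from lung, pericytes and oxygen sensing, lies on chr2:152754173-152765037. In the E18 mural cells it made up 22.6% of Cox4i1 and Cox4i2 UMIs (21 of 93, 14.6 to 32.4), at 543 CPM. It was also present in radial precursors, where it made up 3.51% at E18 (25 of 712, 2.28 to 5.14) and 3.39% at P2 (79 of 2329, 2.69 to 4.21). A UMI was seen in 14 of 91 radial precursors at E18 and in 37 of 114 at P2, and these cells held 79 of the 101 UMIs of the P2 library. In the E18 excitatory neurons, which should lack it, 1 of 1837 cells had a UMI, at a median depth close to that of the radial precursors (6179 UMIs per radial precursor, 6585 per pooled neuron). No UMI was found in the 216 P2 excitatory neurons, whose 2628 Cox4i1 UMIs allow a share of up to 0.14%. As a level, Cox4i2 had 45.5 CPM in E18 and 36.5 CPM in P2 radial precursors, and its P2 log2 ratio of neurons over progenitors was -5.31 (-7.22 to -3.90), from 4 against 83 UMIs.

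Cox6b2, the partner of Cox6b1 known from testis, lies on chr7:4751792-4753094. In the 14 P2 ependymal cells it had 613 CPM beside 570.1 CPM of Cox6b1, or 51.8% of the pair (297 of 573, 47.7 to 56.0). All 8 ependymal markers, which also served to name the class, were detected in it. A UMI of Cox6b2 was seen in 10 of the 14 cells, with at most 67 in a cell. Of these UMIs 296 came from the 9 cells of the ependymal cluster, each of which had some, and 1 from the 5 cells added by their markers, whose median was 873 UMIs per cell. The share was 3.06% in P2 oligodendrocyte precursors, 2.99% in P2 radial precursors, 2.62% in E18 radial precursors and 0.28% in pooled P2 neurons. At E18 its 46 UMIs were spread over 8 classes. Its P2 ratio of neurons over progenitors was -2.03 (-2.72 to -1.38), from 29 against 62 UMIs. The cells of the ependymal cluster were deep, with a median of 50676 UMIs, and the part of depth was not tested.

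The muscle and testis forms were near absent. Cox7a1, known from heart and muscle, had 61 UMIs at E18 and 47 at P2 over all kept cells, Cox6a2 of muscle had 10 and 5, and Cox7b2 of testis had 17 and 2. Of the 5 Cox6a2 UMIs at P2, 4 lay in microglia. The Cox7a1 level in E18 excitatory neurons, 3.18 CPM, was close to that over all kept cells, 3.35 CPM.

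**Figure D4:**
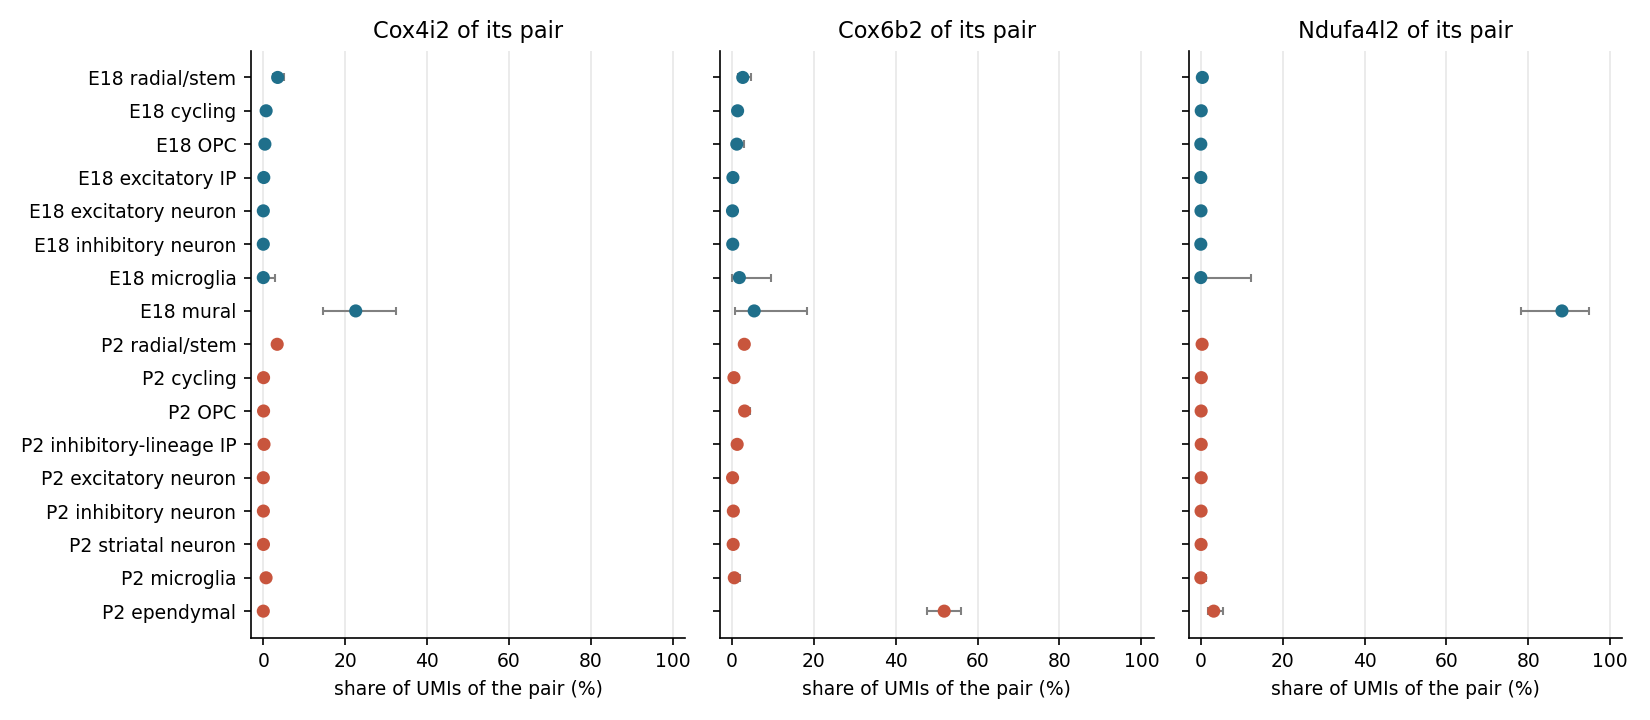
Share (%, x axis) of the UMIs of a pair taken by Cox4i2, Cox6b2 and Ndufa4l2 in each class at E18 (blue) and P2 (red). The partners are Cox4i1, Cox6b1 and Ndufa4, and bars are exact 95% intervals. Ndufa4l2 peaks at 88.2% and Cox4i2 at 22.6% in E18 mural cells, and Cox6b2 at 51.8% in P2 ependymal cells. In radial precursors Cox4i2 has 3.51% at E18 and 3.39% at P2.

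The other genes of the pathway were described as lists in the same contrasts, in which 32.2% of all genes were called higher and 27.9% lower at E18, and 24.1% and 24.7% at P2. Of 16 genes of glycolysis counted, 4 were higher and 10 lower in E18 neurons (median log2 ratio -0.70), and 3 higher and 8 lower at P2 (median -0.52). The radial precursor marker Aldoc is in this list. Of 16 genes of the citric acid cycle, 1 was higher and 1 lower at E18 (median -0.12), and 0 higher and 5 lower at P2 (median -0.29). Of the mitochondrial ribosomal proteins, 1 of 77 was higher and 21 lower at E18 (median -0.27), and 0 of 78 higher and 15 lower at P2 (median -0.24). Of the complex IV assembly factors with cytochrome c, 4 of 16 were higher and 3 lower at E18 (median -0.11), and 1 of 17 higher and 2 lower at P2 (median 0.05).

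Among the regulators of mitochondrial biogenesis, 2 of 12 were higher and 7 lower in E18 neurons (median -0.65), and 2 of 14 higher and 4 lower at P2 (median -0.12). Nrf1, the factor of the NRF1 motif, had a ratio of -0.83 at E18 and -0.60 at P2, Gabpa -1.59 and -0.58, and Tfam, which packs and transcribes mitochondrial DNA, -0.60 and -0.37. Ppargc1a, the coactivator known as PGC-1 alpha, had -2.66 at E18 (44 UMIs in neurons, 28 in progenitors) and -1.57 at P2 (74 and 115 UMIs). Of the 11 helpers of complex III and ATP synthase outside the symbol rule, 3 were higher and 0 lower at E18 (median 0.06) and 2 higher and 0 lower at P2 (median 0.14). Atpif1, the inhibitor that blocks reverse action of ATP synthase, had 1560.0 CPM in E18 neurons against 753 CPM in progenitors, a ratio of 1.05, and 1187 against 893 CPM at P2, a ratio of 0.41. Nrf1, Gabpa, Tfam, Ppargc1a and Atpif1 were chosen from their lists after their values were seen.

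Between ages, radial precursors, cycling cells and oligodendrocyte precursors were the classes that could be set side by side. In all 3, which share the same libraries, the nuclear-encoded sum was lower and the mt-encoded sum higher at P2. The log2 ratio of P2 over E18 for the nuclear sum was -0.22 in radial precursors, -0.24 in cycling cells and -0.32 in oligodendrocyte precursors, and for the mt sum 1.02, 0.93 and 1.01. The cytosolic ribosomal protein sum was lower by more, at -0.89, -0.64 and -1.03. By complex the ratios in radial precursors were -0.23 for complex I, -0.24 for complex II, -0.32 for complex III, -0.21 for complex IV and -0.18 for ATP synthase, and complex III was lowest of the 5 in each class (-0.32, -0.41 and -0.46). The interval of complex II in oligodendrocyte precursors included 0 (-0.09, -0.31 to 0.14). The P2 cells were deeper in each class. Median UMIs per cell were 18624 against 6179 in radial precursors, 26650.5 against 9423 in cycling cells and 15521 against 7138 in oligodendrocyte precursors. The part of depth in the age values was not tested.

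**Figure D5:**
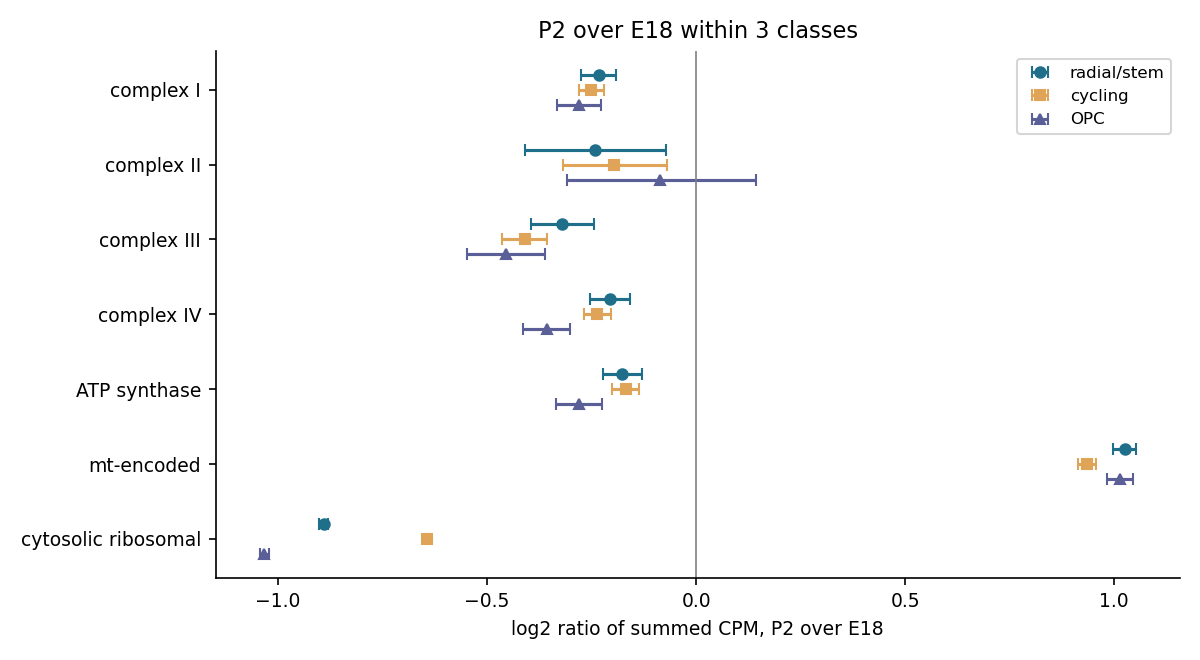
Log2 ratio of summed CPM, P2 over E18 (x axis), for the 5 complexes, the mt-encoded genes and the cytosolic ribosomal proteins, in radial precursors, cycling cells and oligodendrocyte precursors; bars are exact 95% counting intervals. The ratios of the 5 complexes lie below 0 in each class and the mt-encoded sum lies near 1.

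Of the members counted, 2 of 88 were higher by more than 0.5 at P2 and 14 lower in radial precursors, where 52.2% of all genes were called (36.3% higher, 16.0% lower). In cycling cells 1 of 88 was higher and 19 lower, where 55.3% of all genes were called (34.2% higher, 21.1% lower). In oligodendrocyte precursors 2 of 82 were higher and 18 lower, where 59.6% of all genes were called (45.2% higher, 14.4% lower). The median of the members was -0.22, -0.26 and -0.31, against 0.21, 0.14 and 0.38 for all genes. With TMM scaling the share of called genes that were higher went from 69.4% to 57.3% in radial precursors and from 75.9% to 57.4% in oligodendrocyte precursors, and the members called lower went to 26 and 52. That scaling moved the median of all genes from 0.21 to 0.06 and from 0.38 to 0.08 in these classes.

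Ndufs1 was called higher in all 3 classes, with 65.1 CPM at P2 against 34.6 CPM at E18 in radial precursors (log2 ratio 0.91, 0.22 to 1.69), 58.6 against 27.8 CPM in cycling cells (1.08) and 64.9 against 31.3 CPM in oligodendrocyte precursors (1.05). Sdha was higher in radial precursors with 138 against 91.0 CPM (0.61, 0.17 to 1.07). Ndufaf3, an assembly factor of complex I, passed the limit upward in oligodendrocyte precursors on 77 and 12 UMIs (0.62, -0.26 to 1.64). Cox7a2l was lower in all 3 classes, with 295 against 588 CPM (-0.996), 292 against 555 CPM (-0.93) and 335 against 740.0 CPM (-1.15). Ndufc2 was also lower in all 3, by -0.63, -0.997 and -0.62. The complex III subunit Uqcrb was called lower in radial precursors (-0.71) and cycling cells (-0.64) and had -0.48 in oligodendrocyte precursors. Ndufa6, an accessory subunit of complex I, was called lower in radial precursors (-0.90) and oligodendrocyte precursors (-0.79) and had -0.37 in cycling cells. Sdhaf3, an assembly factor of complex II, had 9.63 against 29.8 CPM in cycling cells (-1.63).

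The mt genes did not move by a common factor between ages. In radial precursors the log2 ratio was 4.06 (3.17 to 5.12) for mt-Nd4l, 3.35 (2.20 to 4.81) for mt-Atp8 and 2.52 (2.24 to 2.81) for mt-Nd3, against 0.56 for mt-Nd1 and 0.75 for mt-Atp6. In oligodendrocyte precursors the same 5 genes had 3.15 (2.44 to 3.97), 3.54 (2.30 to 5.18), 2.68 (2.36 to 3.02), 0.28 and 0.74. The E18 counts behind mt-Nd4l and mt-Atp8 were small, with 10 and 6 UMIs in radial precursors and 16 and 5 in oligodendrocyte precursors. The limit of 0.5 was passed upward by 13 of 13 mt genes in radial precursors and in cycling cells and by 11 of 12 in oligodendrocyte precursors. Immediate early and heat shock genes, which mark tissue handling, also differed at P2. In radial precursors 11 of 14 were higher and 1 lower (median 1.05), in cycling cells 8 of 14 were higher and 3 lower (median 0.54), and in oligodendrocyte precursors 9 of 12 were higher and 1 lower (median 1.30), where 36.3%, 34.2% and 45.2% of all genes were higher. Their part in the age differences was not tested.

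Within the P2 library, cells with an EYFP UMI were set against cells of the same class without one. The members hardly differed: the median log2 ratio was -0.03 in cycling cells (111 and 147 cells), -0.04 in inhibitory cells (285 and 773), -0.00 in inhibitory-lineage intermediate progenitors (87 and 127) and -0.01 in radial precursors (59 and 55). Calls past 0.5 were 1, 0, 1 and 2 members, all higher, where 10.2%, 10.8%, 10.9% and 16.4% of all genes were called in either direction. Of all genes 6.98%, 4.39%, 4.77% and 6.90% were higher and 3.22%, 6.42%, 6.17% and 9.55% lower. The called members were Sdhaf3 in cycling cells (0.80, 0.05 to 1.58) and intermediate progenitors (0.78, 0.12 to 1.45), and Cox4i2 (0.67, -0.03 to 1.41) and Ndufaf4 (0.54, -0.15 to 1.25) in radial precursors. The mt share was 3.86% with and 4.26% without EYFP in intermediate progenitors, the widest gap of the 4 classes. A cell without an EYFP UMI can still carry the label, so these values may understate a difference between lineages.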

How the data were processed

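Per the file headers, the authors' deposited matrices hold unnormalised UMI counts for each gene in each barcode, made with Cell Ranger 4.0.0, and the submitters' processing notes name Cell Ranger 4 and mm10. No library chemistry is named in the sources used here. Barcodes with at least 500 genes and at most 10% mt UMIs were kept, the 5% with the highest Scrublet scores in each library were dropped, and each library was clustered with Leiden at resolution 1 (scanpy 1.11.5, leidenalg 0.10.2) without the members, mt-, haemoglobin and sex-linked genes. Of 2922 and 2778 barcodes, 2496 and 2296 stayed, and the deposited totals were 19986915 and 42572208 UMIs.

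Clusters were named from marker lists. Single cells with at least 4 markers of another class making up at least 0.2% of their UMIs were moved to that class, a rule chosen after seeing the data. It set apart the 5 mural cells, the 1 endothelial cell and 5 of the 14 ependymal cells. Counts were summed per class, and ratios carry exact conditional 95% intervals (scipy 1.17.1). The interval code was tested on simulated data. Genes needed 50 UMIs over both groups. Named are isoform partners, the 6 highest and 6 lowest members per contrast by the interval bound nearest 0, the 2 highest and 2 lowest per complex over all cells, the mt genes, and others where said or where they take up a pattern of a named gene. Members and lists were chosen with earlier results of these data known. Ndufb2, Ndufb8, Ndufb9 and both Atp5o entries share exon sequence with another gene on their strand, so their counts are uncertain. Coordinates are GENCODE genes on GRCm38, of which mm10 is the browser name. Alternatives are given in the closing section.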

Additional observations from a re-analysis of the deposited data

Results flagged for a closer look

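For 9 members the counting intervals of the log2 ratio of neurons over progenitors lay on opposite sides of 0 in the 2 libraries. The difference between libraries was not tested, and age, mouse line, dissection and library cannot be told apart. In complex IV, Cox5a had 0.27 at E18 and -0.16 at P2, Cox5b 0.16 and -0.09, Cox6a1 0.36 and -0.08, and Cox6b1 0.12 and -0.07. In complex III the order of 2 small subunits was opposite, since Uqcrh had -0.14 at E18 and 0.21 at P2, while Uqcrq had 0.16 and -0.47. The complex I subunit Ndufa5 had -0.16 and 0.19. In ATP synthase, Atp5l had 0.08 and -0.15, and Atp5o (ENSMUSG00000022956) 0.11 and -0.20. None of the 9 passed 0.5 in either library, and with TMM scaling the E18 ratios of all genes shift upward.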

How the results depend on the processing

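No paired analysis was possible because each age has 1 library. Of the recomputed values of the comparisons, 91 moved by less than the limits used and 46 by more, and 0 were labelled reversed. That label applied only to values past 0.5 in size, here the E18 mt sum alone. Smaller values did change sign, among them the E18 nuclear sum and the E18 median of members with TMM. The alternatives were a 5% or no limit on mt UMIs, keeping likely doublets, resolution 0.5, scaling without mt and ribosomal genes, TMM scaling, cells weighted equally and other UMI minimums, and the cause of each shift was not tested. The E18 nuclear sum of neurons over progenitors was -0.082 with no mt limit, -0.059 without mt and ribosomal genes in the scaling and 0.11 with TMM. The E18 mt sum was 0.66 at the 5% limit, 0.78 with no limit, 0.87 with TMM and 0.57 with equal cells. E18 members called higher were 12 with TMM and 5 at a minimum of 10 or 1 UMIs, members called lower were 3 with TMM, and their median was 0.13 with TMM. The P2 nuclear sum was -0.19 at 5%, -0.13 with doublets kept, -0.13 without mt and ribosomal genes, -0.14 with TMM and -0.20 with equal cells. The P2 mt sum was 0.040 at 5%, 0.33 with no limit, 0.26 with doublets kept, 0.28 at resolution 0.5, 0.30 without mt and ribosomal genes, 0.29 with TMM and 0.26 with equal cells. P2 members called higher were 2 at 5%, without mt and ribosomal genes, with TMM and at a minimum of 1 UMI, and 0 with equal cells, where 13 were called lower. The median of members for P2 over E18 in radial precursors was -0.38 at 5%, -0.33 without mt and ribosomal genes, -0.37 with TMM and -0.14 with equal cells. It was -0.36 in cycling cells without mt and ribosomal genes, and in oligodendrocyte precursors -0.52 without those genes and -0.61 with TMM. The median for EYFP over none was 0.0043 with no limit and -0.070 with TMM in cycling cells, 0.00043 with equal cells in inhibitory cells, 0.017 with no limit and 0.041 with equal cells in intermediate progenitors, and in radial precursors 0.060 with no limit, -0.075 with doublets kept, 0.064 with TMM and 0.063 with equal cells. At resolution 0.5 E18 had no class of radial precursors or cycling cells, so the E18 neuron contrast and the age contrasts in those classes have no value. With no mt limit E18 had no class of oligodendrocyte precursors, so their age contrast has none. At the 5% limit 118 E18 cells were named microglia and 64 endothelial, against 10 and 1 in the main run. With doublets kept 108 P2 cells were named erythroid, and excitatory neurons numbered 56 against 216. Values under these settings thus come in part from differently made classes.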

Other observations

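In the 14 P2 ependymal cells, members outside the isoform families also stood apart from the level over all cells. These were chosen after their values were seen. Ndufb5, a membrane-arm subunit of complex I, had 1111 CPM (1019 to 1209) and a UMI in 12 of 14 cells, 9 of them in the ependymal cluster, against 292 CPM over all P2 cells. Ndufaf3, an assembly factor of complex I, had 698 CPM (626 to 777) in 12 of 14 cells, against 57.0 CPM over all P2 cells. The acyl carrier protein Ndufab1 had 597 CPM against 247 CPM, and Cox7a2l had 209 CPM against 354 CPM. Cox5a, a complex IV subunit also chosen after its values were seen, had 1165 CPM in E18 inhibitory cells, 722 CPM in excitatory neurons and 479 CPM in radial precursors, while at P2 inhibitory cells had 472 CPM.

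Barcodes with at least 500 genes that were left out for an mt share above the limit numbered 251 at E18, with 16.03% mt and 1.503% nuclear-encoded UMIs, and 240 at P2, with 16.1% and 2.17%. In the E18 barcodes Cox4i1 stood at 988 CPM and Ndufa4 at 875 CPM, against 1321 and 970.4 CPM in kept cells, while Uqcrh stood at 158 against 674 CPM. Single members went either way: Atp5e had 98.8 against 750 CPM, but Ndufb11 had 354 against 286 CPM and Ndufa13 494 against 380 CPM. All of these are examples chosen with their values known.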
